A study of Mus musculus with 30 samples.

Results

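The signalling chain of interferon gamma (IFNG) and of the related type I interferons was followed through 9 genes, out of 54146 genes in the count table. They are the receptor genes Ifngr1 and Ifngr2 for IFNG and Ifnar1 and Ifnar2 for the type I interferons, the Janus kinase genes Jak1, Jak2 and Tyk2, and the transcription factor genes Stat2 and Stat3. The genes were chosen by symbol and found through their Ensembl identifiers. All 9 passed the filter on low counts in every comparison. Not every STAT gene was analysed here.

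RNA was measured in 5 clones of J774A.1, a mouse macrophage-like cell line. Clones WT1, WT2 and WT3 were wild type, expanded from single cells without electroporation. KO1 and KO2 carried a homozygous CRISPR deletion of B2_Mm2.Dicer1, an element in the first intron of Dicer1. Each clone was left untreated (UT) or given 100 ng/mL IFNG for 4 h, with 3 polyadenylated RNA libraries per clone and treatment, 30 in all, or 9 WT and 6 KO libraries per treatment. KO and WT clones thus also differ in whether they were electroporated, and libraries of a clone repeat that clone. The labels do not say whether they came from separate cultures, so p-values measure the spread between these libraries, which may be technical.

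As background, IFNG binds a receptor in which the IFNGR1 chain carries JAK1 and the IFNGR2 chain carries JAK2. The type I interferons use IFNAR1 with TYK2 and IFNAR2 with JAK1. The activated kinases phosphorylate STAT proteins. STAT dimers bind the GAS motif, while the complex of STAT2, a partner STAT and IRF9 binds the ISRE motif. STAT3 is best known for carrying signals of the IL6 and IL10 cytokines, in macrophages too.

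Levels are given as CPM, the count of a gene relative to the TMM-scaled library total. Between 15566122 and 37992642 fragments were counted per library, and the lowest count of any member in a library was 316 (Ifngr1). All 8 macrophage markers were at 1 CPM or more in every library, and the summed markers of B cells, T cells, epithelial cells, neutrophils, fibroblasts and endothelial cells were at most 3.48 CPM. The log2FC of KO against WT for Dicer1, the gene that holds the deleted element, was -0.43 (SE 0.11, FDR-adjusted p-value 0.0069) in untreated cells and -0.80 (SE 0.089, FDR-adjusted p-value 1.4e-05) after IFNG. The table counts exons, so the deletion itself cannot be read from it.

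After 4 h of IFNG, Stat2 and Stat3 rose most, Jak2 rose less, and 3 of 4 receptor genes fell. In pooled WT libraries, 4 of 9 members were higher (Stat2, Stat3, Jak2 and Jak1) and 3 were lower (Ifngr1, Ifngr2 and Ifnar1) at an FDR-adjusted p-value under 0.05 (edgeR quasi-likelihood test). Of all 13423 genes tested, 28.6% were called, with 14.8% higher and 13.9% lower. In pooled KO libraries the same 7 members were called in the same directions, beside 30.7% of genes called, 15.8% higher and 14.8% lower. Ifnar2 and Tyk2 passed in neither, except that Ifnar2 passed in KO in 3 of 8 alternative fits (given with its values). The median log2FC of the 9 members was 0.067 in WT and 0.11 in KO, beside -0.0028 and -0.0037 over all genes tested. In bulk RNA, fewer cells that express a gene and less of its RNA per cell cannot be told apart.

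**Figure D1:**
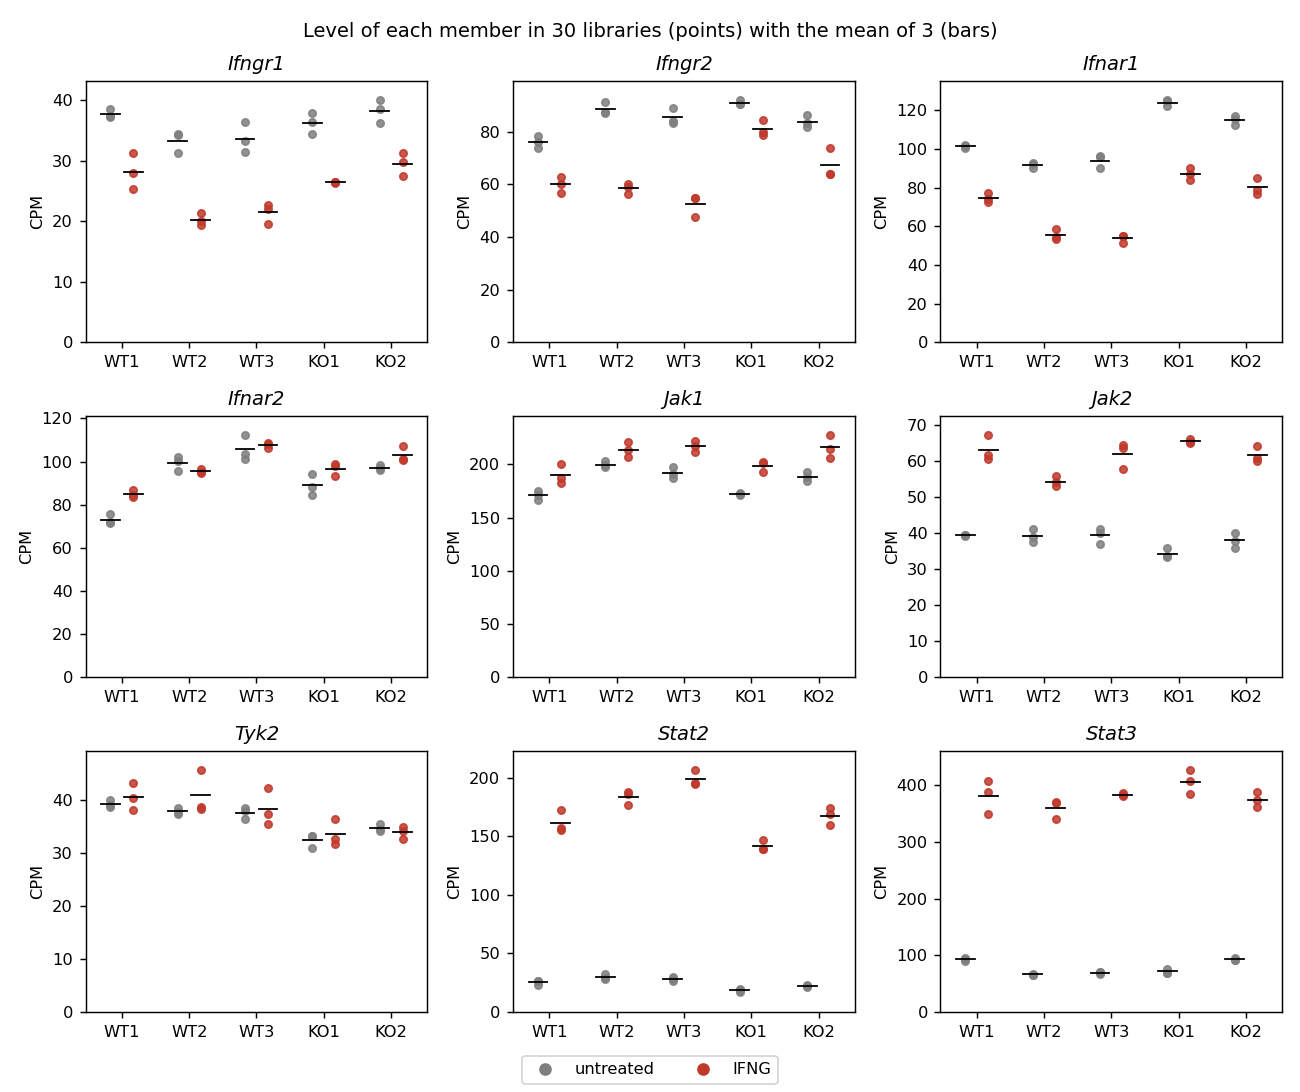
CPM (y axes, each from 0) of the 9 members in the 30 libraries by clone (x axes), untreated and after IFNG in separate colours, with a bar at the mean of 3 libraries. All IFNG libraries of Stat2, Stat3 and Jak2 lie above all untreated ones, and all IFNG libraries of Ifngr1 lie below.

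The promoters of 4 members are shown, Stat2 and Stat3 because they rose most, and Ifnar1 and Ifnar2 because these partners in a single receptor moved differently. All 9 members had a window in the RefSeq promoter table (GRCm38.p6). The sequences cover the 250 bases before the annotated start, 5′ to 3′ on the strand of the gene, and the Ifnar1 sequence runs on to the end of a match that crosses the start. Capitals mark matches to TTCNNNGAA (GAS) or to GAAA and GAAA with any 2 bases between them (core of the ISRE), each searched on both strands. Stat2 is at chr10:128270248-128270497 (plus strand), Stat3 at chr11:100939541-100939790 (minus strand), Ifnar1 at chr16:91484965-91485218 (plus strand) and Ifnar2 at chr16:91372533-91372782 (plus strand).
Stat2: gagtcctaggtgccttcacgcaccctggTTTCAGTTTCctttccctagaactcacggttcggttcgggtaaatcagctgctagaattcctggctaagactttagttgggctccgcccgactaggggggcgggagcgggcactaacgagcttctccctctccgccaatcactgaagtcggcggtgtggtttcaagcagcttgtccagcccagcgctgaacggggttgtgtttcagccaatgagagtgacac
Stat3: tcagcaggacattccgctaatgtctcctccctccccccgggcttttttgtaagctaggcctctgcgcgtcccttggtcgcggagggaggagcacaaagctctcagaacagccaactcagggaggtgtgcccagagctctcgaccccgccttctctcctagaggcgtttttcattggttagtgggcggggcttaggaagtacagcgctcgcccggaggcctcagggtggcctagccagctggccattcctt
Ifnar1: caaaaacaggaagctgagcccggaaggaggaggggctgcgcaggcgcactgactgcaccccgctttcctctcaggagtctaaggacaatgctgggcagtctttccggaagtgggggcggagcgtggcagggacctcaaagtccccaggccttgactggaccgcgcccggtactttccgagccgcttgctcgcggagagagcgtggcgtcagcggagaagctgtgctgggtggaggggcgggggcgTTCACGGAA
Ifnar2: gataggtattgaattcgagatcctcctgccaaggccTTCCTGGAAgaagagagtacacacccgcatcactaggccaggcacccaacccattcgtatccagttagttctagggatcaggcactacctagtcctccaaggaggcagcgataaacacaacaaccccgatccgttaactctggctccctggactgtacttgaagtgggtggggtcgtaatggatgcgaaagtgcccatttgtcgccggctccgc
Over windows of 250 bases before to 50 bases after the start, 1 member held an ISRE core (Stat2) and 2 held a GAS (Ifnar1 and Ifnar2). Of all 32851 windows in the table, 3.44% held an ISRE core and 8.3% a GAS. The Stat2 match lies on the opposite strand, with its first base 222 bases before the start. The GAS begins 214 bases before the start in Ifnar2 and 5 bases before it in Ifnar1. Both genes with a GAS in the window thus differed in their response, and Stat3 and the other 5 members held neither pattern, which says only that these letters are not in this window.

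Ifngr1 (ENSMUSG00000020009.13, chromosome 10 from 19591949 to 19610229, plus strand) encodes the ligand-binding chain of the IFNG receptor. Its level in untreated WT libraries ran from 31.3 over 34.5 to 38.6 CPM (lowest, median, highest) and after IFNG from 19.4 over 21.99 to 31.2 CPM. In KO it ran from 34.5 over 37.2 to 39.9 CPM untreated and from 26.4 over 26.99 to 31.2 CPM after IFNG. Every IFNG library of the experiment was below every untreated library, as for 2.4% of the 12345 genes whose mean reached 1 CPM. Ifngr1 fell by 33% in WT (log2FC -0.58, SE 0.085, FDR-adjusted p-value 2.0e-05) and by 24.3% in KO (log2FC -0.40, SE 0.054, FDR-adjusted p-value 3.7e-05).

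Ifngr2 (ENSMUSG00000022965.8, chromosome 16 from 91547072 to 91565623, plus strand) encodes the chain that brings JAK2 to the receptor. It ran from 73.96 over 84.02 to 91.4 CPM in untreated WT and from 47.5 over 56.7 to 62.9 CPM in treated WT. The KO libraries ran from 81.9 over 88.3 to 91.9 CPM untreated and from 63.8 over 76.2 to 84.6 CPM after IFNG. Treated libraries were below untreated ones in WT and within each KO clone, but the pooled KO libraries overlapped. How many genes separate within single clones was not counted. Ifngr2 fell by 31.4% in WT (log2FC -0.54, SE 0.050, FDR-adjusted p-value 3.1e-08) and by 14.6% in KO (log2FC -0.23, SE 0.067, FDR-adjusted p-value 0.017).

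Ifnar1 (ENSMUSG00000022967.13, chromosome 16 from 91485238 to 91507441, plus strand) encodes the TYK2-binding chain of the type I receptor. It ran from 89.9 over 95.9 to 102 CPM in untreated WT and from 51.6 over 55.2 to 77.2 CPM in treated WT. In KO it ran from 112 over 119 to 125 CPM untreated and from 76.5 over 84.5 to 89.9 CPM after IFNG. Treated and untreated libraries did not overlap within either genotype. The highest treated KO library (89.95 CPM) was just above the lowest untreated WT library (89.92 CPM). Ifnar1 fell by 35.6% in WT (log2FC -0.64, SE 0.076, FDR-adjusted p-value 1.5e-06) and by 29.5% in KO (log2FC -0.50, SE 0.042, FDR-adjusted p-value 2.9e-07).

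Ifnar2 (ENSMUSG00000022971.18, chromosome 16 from 91372783 to 91405589, plus strand), which encodes the JAK1-binding chain of the same receptor, did not pass in either pooled fit. It ran from 71.5 over 101 to 112 CPM in untreated WT and from 83.6 over 95.1 to 109 CPM in treated WT, and from 84.7 over 95.05 to 98.3 CPM in untreated and 93.5 over 99.8 to 107 CPM in treated KO. The groups overlapped in both genotypes. Its log2FC was 0.058 in WT (95% interval -0.12 to 0.23, FDR-adjusted p-value 0.73) and 0.11 in KO (95% interval 0.025 to 0.20, FDR-adjusted p-value 0.072). In KO it did pass with clone as a block (log2FC 0.11, FDR-adjusted p-value 0.0086), in a single fit over all libraries (0.0073) and without KO2 (0.039). Within clones it passed in WT1 (log2FC 0.21, FDR-adjusted p-value 0.021) and KO1 (log2FC 0.15, FDR-adjusted p-value 0.039), but not with no filter on low counts (FDR-adjusted p-values 0.055 and 0.096) or without any of 4 of the 6 libraries of either clone. Per kb of exon, the ratio of Ifnar1 to Ifnar2 ran over the clone means from 0.499 to 0.781 untreated and from 0.281 to 0.504 after IFNG, and it was lower after IFNG in each clone. Ifnar2 shares exons on its strand with Gm21970, whose annotation spans parts of Ifnar2 and Il10rb, and fragments there were counted for each gene, so the Ifnar2 value is uncertain.

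Of the kinases, Jak2 (ENSMUSG00000024789.12, chromosome 19 from 29251828 to 29313080, plus strand) moved most. It ran from 36.9 over 39.5 to 41.1 CPM in untreated WT and from 52.9 over 60.5 to 67.1 CPM in treated WT. KO libraries ran from 33.2 over 35.8 to 40.1 CPM untreated and from 60.1 over 64.4 to 66.2 CPM after IFNG. All treated libraries were above all untreated libraries. The rise was 1.53-fold in WT (log2FC 0.61, SE 0.045, FDR-adjusted p-value 1.2e-09) and 1.77-fold in KO (log2FC 0.82, SE 0.051, FDR-adjusted p-value 8.3e-09).

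Jak1 (ENSMUSG00000028530.14, chromosome 4 from 101152367 to 101265282, minus strand) encodes the kinase shared by both receptors. It ran from 166 over 191 to 203 CPM in untreated WT and from 183 over 211 to 222 CPM in treated WT, and from 171 over 178 to 193 CPM in untreated and 193 over 204 to 227 CPM in treated KO. Treated libraries were above untreated ones within each clone, while the pooled WT libraries overlapped. The share of all genes that separate within single clones was not counted. The rise was 1.11-fold in WT (log2FC 0.15, SE 0.049, FDR-adjusted p-value 0.028) and 1.16-fold in KO (log2FC 0.21, SE 0.046, FDR-adjusted p-value 0.0024). The WT call was lost with no filter on low counts (FDR-adjusted p-value 0.11), without WT2 (0.085) and without WT3 (0.25). Over its 9 alternatives the FDR-adjusted p-value ran from 7.3e-06 (single fit over all libraries) to 0.25 (without WT3). Per kb of exon, the ratio of Jak1 to Jak2 ran over the clone means from 3.02 to 3.55 untreated and from 2.10 to 2.74 after IFNG.

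Tyk2 (ENSMUSG00000032175.11, chromosome 9 from 21104068 to 21131243, minus strand), the kinase of IFNAR1, ran from 36.4 over 38.4 to 40.1 CPM in untreated WT and from 35.5 over 38.6 to 45.6 CPM in treated WT. The KO values ran from 30.9 over 33.6 to 35.5 CPM untreated and from 31.7 over 33.4 to 36.4 CPM after IFNG. Treated and untreated libraries overlapped in each clone. Its log2FC was 0.067 in WT (95% interval -0.018 to 0.15, FDR-adjusted p-value 0.30) and 0.020 in KO (95% interval -0.072 to 0.11, FDR-adjusted p-value 0.80).

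Stat2 (ENSMUSG00000040033.16, chromosome 10 from 128270559 to 128292849, plus strand) had the largest rise of the members. It ran from 22.9 over 28.1 to 32.3 CPM in untreated WT and from 155 over 186 to 206 CPM in treated WT. Among KO libraries it ran from 17.1 over 20.5 to 23.1 CPM untreated and from 139 over 153 to 174 CPM after IFNG. The lowest treated library was far above the highest untreated one. Stat2 rose 6.55-fold in WT (log2FC 2.71, SE 0.068, FDR-adjusted p-value 4.6e-17) and 7.58-fold in KO (log2FC 2.92, SE 0.082, FDR-adjusted p-value 8.9e-13).

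Stat3 (ENSMUSG00000004040.16, chromosome 11 from 100885098 to 100939540, minus strand) ran from 66.02 over 70.3 to 96.1 CPM in untreated WT and from 342 over 381 to 409 CPM in treated WT. In KO it ran from 69.8 over 84.1 to 96.1 CPM untreated and from 363 over 387 to 427 CPM after IFNG. It rose 4.91-fold in WT (log2FC 2.30, SE 0.085, FDR-adjusted p-value 2.4e-14) and 4.75-fold in KO (log2FC 2.25, SE 0.088, FDR-adjusted p-value 4.4e-11). Every treated library of Stat2, Stat3 and Jak2 was above every untreated library, as for 5.44% of those 12345 genes (within WT alone, 7.11% were above and 4.75% below, and within KO alone 10.9% and 10%). Per kb of exon, the ratio of Stat2 to Stat3 ran over the clone means from 0.384 to 0.719 untreated and from 0.561 to 0.832 after IFNG.

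The order of the members changed with treatment. Exon length here is that of all annotated exons of a gene, not of the transcripts expressed. Places in the order and ratios between genes thus depend on the annotation. Per kb of exon, the mean levels over 15 untreated libraries, in CPM per kb, were Ifnar2 (27.9), Jak1 (25.5), Ifngr2 (22.6), Ifnar1 (17.7), Ifngr1 (12.6), Stat3 (8.30), Jak2 (7.56), Tyk2 (5.30) and Stat2 (4.20). Among neighbours in this order, the library ranges did not overlap between Ifnar1 and Ifngr1, Ifngr1 and Stat3, and Jak2 and Tyk2. After IFNG the levels were Stat3 (40.05), Ifnar2 (29.3), Stat2 (28.8), Jak1 (28.6), Ifngr2 (16.95), Jak2 (12.2), Ifnar1 (11.8), Ifngr1 (8.84) and Tyk2 (5.46). The ranges did not overlap between Stat3 and Ifnar2, Jak1 and Ifngr2, and Ifngr1 and Tyk2. Stat2 went from the last place to a group with Ifnar2 and Jak1 whose ranges overlapped.

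**Figure D2:**
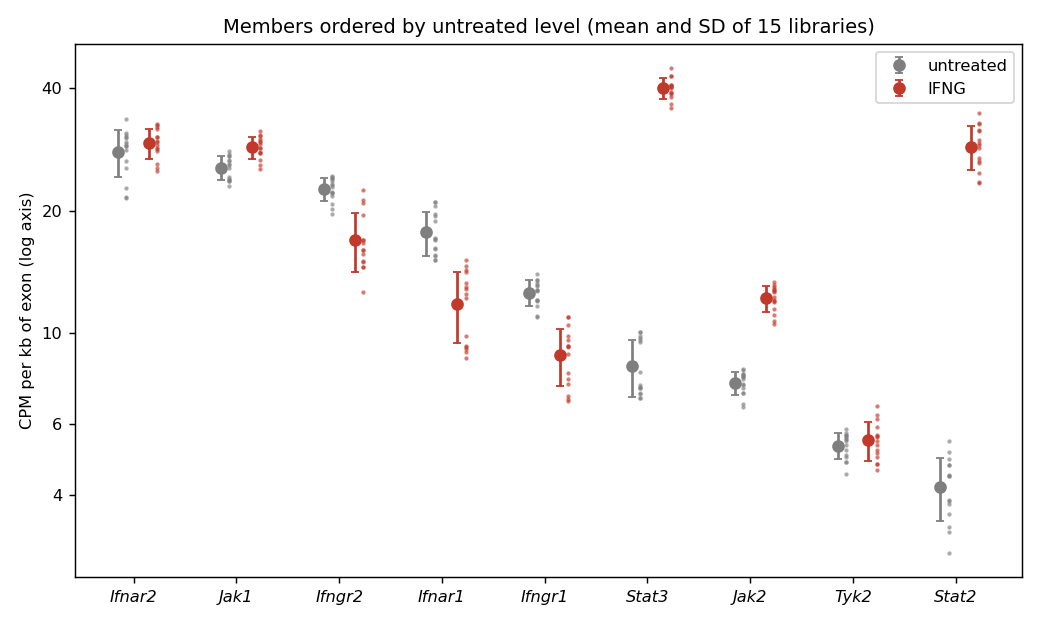
Level per kb of exon (y axis, log scale, CPM per kb) of the 9 members (x axis), untreated and after IFNG in separate colours, with points and bars for the mean and SD and dots for 15 libraries each. Stat3 goes from 8.30 to 40.05 and Stat2 from 4.20 to 28.8 CPM per kb in the mean. Exon length is that of all annotated exons of a gene.

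By clone, 4 members were higher and 3 lower in WT1, WT2, WT3 and KO2, and 5 were higher and 3 lower in KO1. Of all genes, 21.2% were called in WT1 (11.8% higher and 9.47% lower), 34.5% were called in WT2 (17.4% higher and 17% lower), 36.1% were called in WT3 (18.6% higher and 17.5% lower), 29.4% were called in KO1 (16.2% higher and 13.2% lower) and 27.1% in KO2 (13.9% higher and 13.2% lower). Stat2, Stat3 and Jak2 were higher, and Ifngr1, Ifngr2 and Ifnar1 lower, in each of the 5 clones. Jak1 did not pass in WT1 (log2FC 0.14, FDR-adjusted p-value 0.11), and its call in WT2 (log2FC 0.11, FDR-adjusted p-value 0.017) was lost without any of 4 of the 6 WT2 libraries (0.050 to 0.080) and in the single fit over all libraries (0.089). The Ifngr2 call in KO1 (log2FC -0.14, FDR-adjusted p-value 0.041) was lost with DESeq2 (FDR-adjusted p-value 0.075) and without any of 5 of its 6 libraries.

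A test over the 5 clones called a differing response for Stat3 (FDR-adjusted p-value 1.4e-06), Ifngr2 (5.9e-05), Ifnar1 (0.00047) and Jak2 (0.0026), 4 of 9 members beside 3.68% of the 14870 genes tested. The Jak2 call was lost without WT2 (FDR-adjusted p-value 0.080) or KO1 (0.41), and the Ifnar1 call without WT3 (0.074). The Stat2 response, with log2FC from 2.64 to 2.95 over the clones, did not pass (FDR-adjusted p-value 0.094), but did with DESeq2 (0.017) and with no filter on low counts (0.018).

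**Figure D3:**
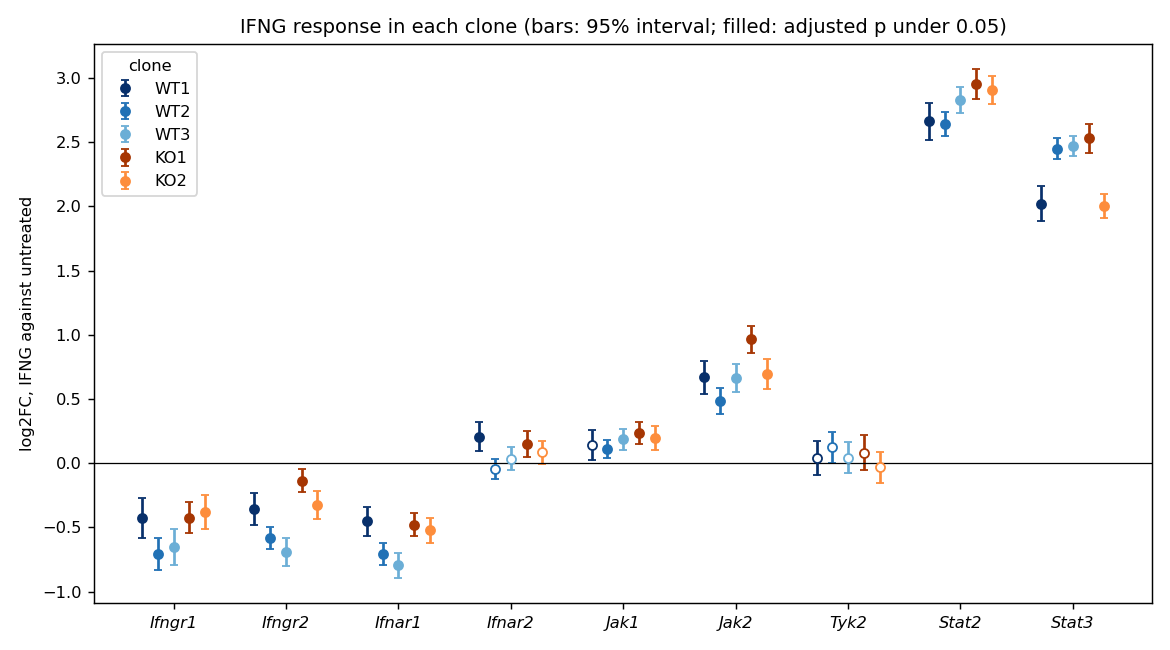
log2FC of IFNG against untreated libraries (y axis) of the 9 members (x axis) in each clone, 3 against 3 libraries, with bars for 95% intervals and filled points for an FDR-adjusted p-value under 0.05. Stat3 lies at 2.002 in KO2 and 2.02 in WT1 and between 2.45 and 2.53 in the other clones, and Ifngr2 lies between -0.69 in WT3 and -0.14 in KO1.

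For Stat3, the clones differed in the untreated level. The untreated libraries held 90.5, 93.9 and 96.1 CPM in WT1 and 91.7, 92.7 and 96.1 CPM in KO2. They held 66.02, 66.1 and 67.7 CPM in WT2, 68.04, 70.3 and 71.00 CPM in WT3 and 69.8, 69.9 and 76.4 CPM in KO1. A WT clone and a KO clone were thus high and did not overlap with the other 3 clones. This split was seen in the values, and the share of all genes that split in the same way was not counted. Untreated levels differed among the clones for 73.2% of all genes tested. After IFNG, the clone means lay between 360.3 ± 16.2 CPM (WT2) and 407 ± 20.9 CPM (KO1, SD, n = 3 each). The fold change was 4.05 in WT1 and 4.01 in KO2, and 5.47, 5.54 and 5.77 in WT2, WT3 and KO1.

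For Ifngr1 and Ifnar1, WT1 lay nearer to the KO clones than to WT2 and WT3 after IFNG. Ifngr1 was at 28.2 ± 2.94 CPM in WT1, 26.5 ± 0.0797 CPM in KO1 and 29.5 ± 1.90 CPM in KO2, beside 20.3 ± 0.964 CPM in WT2 and 21.4 ± 1.63 CPM in WT3 (SD, n = 3 each). Ifnar1 was at 74.6 ± 2.39 CPM in WT1, 87.05 ± 2.91 CPM in KO1 and 80.1 ± 4.29 CPM in KO2, beside 55.4 ± 2.59 CPM in WT2 and 53.97 ± 2.06 CPM in WT3. Of either gene, no library of WT2 or WT3 reached any library of WT1 or KO. This grouping of clones was chosen after the values were seen, and the share of all genes that separate in this way was not counted. It also matches the library column names, which number WT1, KO1 and KO2 before WT2 and WT3. The clone names of WT2 and WT3 have another form there. Whether the libraries were handled apart is not stated, and its part in the grouping was not tested. Ifngr2 was at 59.99 ± 3.12 CPM in WT1, 58.6 ± 2.05 CPM in WT2 and 52.4 ± 4.26 CPM in WT3, below 67.2 ± 5.69 CPM in KO2 and 81.1 ± 3.08 CPM in KO1. Ifnar2 was lowest in untreated WT1, at 73.1 ± 2.30 CPM beside 89.1 to 106 CPM in the other clones.

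Untreated levels differed among the clones for all 9 members, as for 73.2% of the 14467 genes tested. The Jak2 call was lost without KO1 (FDR-adjusted p-value 0.70) and the Ifngr2 call without WT1 (0.073). The highest clone mean over the lowest ran from 1.15 (Ifngr1) to 1.59 (Stat2) untreated and from 1.13 (Stat3) to 1.61 (Ifnar1) after IFNG.

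KO and WT clones were compared because the study asks what deletion of the element changes. In untreated cells, Ifnar1 was higher in KO and Stat2, Tyk2 and Jak2 were lower, 4 of 9 members beside 26.6% of all genes (12.2% higher and 14.4% lower). After IFNG, Ifnar1 and Ifngr2 were higher and Stat2 and Tyk2 lower, 4 of 9 beside 23.9% (10.9% higher and 13% lower). With counts summed per clone, 0 of 9 members passed in either treatment (edgeR, lowest FDR-adjusted p-value 0.30). At an unadjusted p-value under 0.05 were 2 members untreated, beside 1842 of 16189 genes, and 3 after IFNG, beside 1824 of 16197. The calls thus rest on libraries of a clone being taken as replicates. An exact two-sided permutation test over the 10 splits of the 5 clones cannot give a p-value under 0.1, and gave 0.1 for untreated Ifnar1, Stat2, Tyk2 and Jak2 and for treated Ifngr2 and Tyk2.

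**Figure D4:**
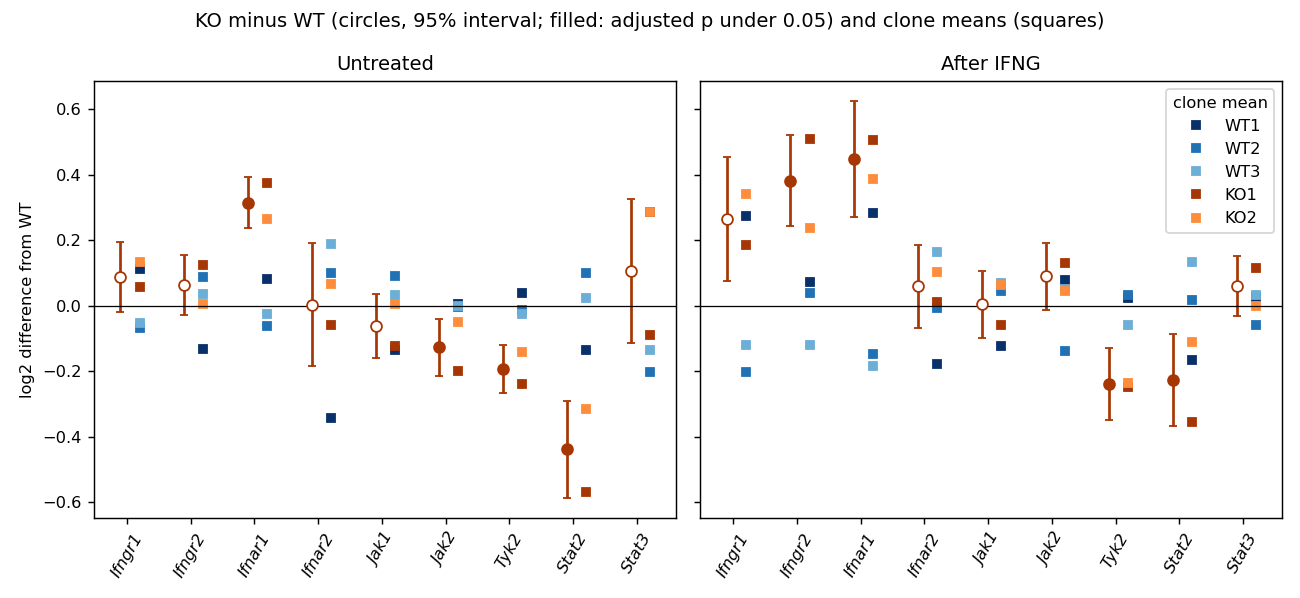
log2 difference of KO from WT (y axes) for the 9 members (x axes), untreated (left) and after IFNG (right). Circles show the pooled fit with its 95% interval, filled for an FDR-adjusted p-value under 0.05, and squares show clone means against the average of the 3 WT clone means. Both KO clones lie outside the WT clones on the same side for Ifnar1, Jak2, Tyk2 and Stat2 untreated and for Ifngr2, Ifnar1 and Tyk2 after IFNG. The share of all genes whose clone means lie so was not counted.

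Ifnar1 was 24.4% higher in untreated KO (log2FC 0.31, SE 0.040, FDR-adjusted p-value 3.2e-05). All KO libraries (112 to 125 CPM) were above all WT libraries (89.9 to 102 CPM), and 10.1% of those 12345 genes had all KO libraries outside the WT range on 1 side. After IFNG it was 36.5% higher (log2FC 0.45, SE 0.090, FDR-adjusted p-value 0.0018), and the ranges overlapped through WT1. Ifngr2 did not pass untreated (log2FC 0.063, 95% interval -0.029 to 0.15, FDR-adjusted p-value 0.35). After IFNG it was 30.3% higher (log2FC 0.38, SE 0.071, FDR-adjusted p-value 0.0010), and all KO libraries were above all WT libraries, where 8.59% of genes had KO outside the WT range. Without KO1, the calls after IFNG were lost for Ifnar1 (FDR-adjusted p-value 0.067), Ifngr2 (0.068), Tyk2 (0.056) and Stat2 (0.47).

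Stat2 was at 0.738 of the WT level in untreated KO (log2FC -0.44, SE 0.076, FDR-adjusted p-value 0.00050) and at 0.855 of it after IFNG (log2FC -0.23, SE 0.072, FDR-adjusted p-value 0.031). KO1 had the lowest clone mean in each treatment, with 18.8 ± 1.42 CPM before and 142 ± 4.57 CPM after treatment (SD, n = 3). KO2 was below the WT clone means untreated (22.3 ± 0.949 CPM) but not after IFNG, where it was at 168 ± 7.28 CPM and WT1 at 162 ± 9.20 CPM. The call after IFNG was also lost without WT2 (FDR-adjusted p-value 0.091), without WT3 (0.14) and with no filter on low counts (0.075).

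Tyk2 was at 0.874 of the WT level in untreated KO (log2FC -0.19, SE 0.037, FDR-adjusted p-value 0.0011) and at 0.847 of it after IFNG (log2FC -0.24, SE 0.056, FDR-adjusted p-value 0.0053). All untreated KO libraries (30.9 to 35.5 CPM) were below all untreated WT libraries (36.4 to 40.1 CPM). Jak2 was at 0.916 of the WT level in untreated KO (log2FC -0.13, SE 0.044, FDR-adjusted p-value 0.045), and the call was lost without any of WT1, WT2, WT3 or KO1 (FDR-adjusted p-values 0.063 to 0.59). The other untreated members did not pass, with 95% intervals of the log2FC of -0.16 to 0.037 for Jak1, -0.11 to 0.33 for Stat3, -0.018 to 0.20 for Ifngr1 and -0.19 to 0.19 for Ifnar2. Without WT1, 7 members were called untreated, and the share of all genes called rose as well, to 47.8% of 13552. Ifngr1 did not pass after IFNG (log2FC 0.27, FDR-adjusted p-value 0.056), but did without WT1 (log2FC 0.42, FDR-adjusted p-value 3.2e-05) and with DESeq2 (0.040).

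The summed level of the 8 macrophage markers was 3731 to 5154 CPM in untreated WT and 5569 to 6228 CPM in untreated KO. After IFNG it was 3619 to 4871 CPM and 5524 to 5928 CPM. Of single genes, 10.1% untreated and 8.59% after IFNG had all KO libraries outside the WT range on 1 side. Lyz2, Csf1r and Itgam had the highest medians (1898, 1228 and 804 CPM), so the sum does not show that each marker moved. The difference of the sums, and its part in the differences of the members, was not tested.

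The interaction of treatment and genotype tested whether the response differs. Ifngr2 alone of the 9 members was called, with a log2FC 0.30 higher in KO (SE 0.066, FDR-adjusted p-value 0.014), beside 1.02% of the 14870 genes tested (0.679% higher and 0.336% lower). By clone, its response was -0.36, -0.58 and -0.69 in WT1, WT2 and WT3 and -0.14 and -0.33 in KO1 and KO2 on the log2 scale. The WT1 and KO2 responses were close. The call was lost without WT2 (FDR-adjusted p-value 0.12), WT3 (0.10) or KO1 (0.50) and with counts summed per clone (0.66). Stat2 and Jak2 had responses 0.21 and 0.21 higher in KO on the log2 scale (FDR-adjusted p-values 0.091 and 0.093), and both passed with DESeq2 (0.033 and 0.038) and with no filter on low counts (0.020 and 0.032). Jak2 also passed without KO2 (0.011) and Stat2 without WT3 (0.025). Without WT1, Ifnar1 (0.00060), Ifngr1 (0.015) and Jak2 (0.029) passed as well, beside 3.87% of 14584 genes. The exact permutation test of the clone responses gave 0.2 for Ifngr2, and its smallest p-value of 0.1 only for Jak2.

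Ifnar2, Il10rb, Ifnar1 and Ifngr2 lie in this order on the plus strand of chromosome 16, in a stretch of 192.841 kb with 12 annotated genes. Il10rb encodes a chain shared by the receptors of IL10 and the type III interferons. It fell in WT (log2FC -0.71, SE 0.072, FDR-adjusted p-value 1.4e-07) and in KO (log2FC -0.50, SE 0.057, FDR-adjusted p-value 6.4e-06). Its clone means went from 70.9 to 48.5 CPM in WT1 and from 94.5 to 55.3 CPM in WT2. Of 6 genes of the stretch tested in pooled WT, 4 were lower (Il10rb, Ifnar1, Ifngr2 and Gm21970) and 0 were higher. Of all genes tested, 13.9% were lower and 14.8% higher. The stretch was bounded by members, and Ifnar1 and Ifngr2 were already given as lower, so its count is no separate result. Ifnar2 and A930006K02Rik did not pass. The Gm21970 value (log2FC -0.27, FDR-adjusted p-value 0.011) is uncertain, since it shares counted fragments with Ifnar2. Its annotation also spans part of Il10rb, so Gm21970 may not be a separate case.

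Other genes of the pathway were taken from lists. Irf1 and Gbp2, interferon-induced genes, rose in pooled WT (log2FC 5.10, SE 0.066, FDR-adjusted p-value 3.1e-21 for Irf1, and log2FC 7.51, SE 0.11, FDR-adjusted p-value 2.8e-20 for Gbp2). Irf9, the DNA-binding partner of STAT2, rose in WT (1.98-fold, SE of log2FC 0.086, FDR-adjusted p-value 1.8e-08) and KO (2.54-fold, SE of log2FC 0.062, FDR-adjusted p-value 2.7e-10). Untreated Irf9 was lower in KO (log2FC -0.50, SE 0.10, FDR-adjusted p-value 0.0019). With counts summed per clone its log2FC was again -0.50, but it did not pass (edgeR, FDR-adjusted p-value 0.38).

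Of 5 other JAK and STAT genes, 4 were tested in pooled WT. Stat5b rose (log2FC 0.90, SE 0.067, FDR-adjusted p-value 1.4e-09) and Stat6, the STAT of IL4 signalling, fell (log2FC -0.24, SE 0.072, FDR-adjusted p-value 0.015), and Stat4 had at most 1 count in a library. Jak3 (log2FC 0.55, FDR-adjusted p-value 0.083) and Stat5a (log2FC 0.36, FDR-adjusted p-value 0.067) did not pass in the pooled fit, which has no clone term. They passed with clone as a block (FDR-adjusted p-values 7.1e-09 and 1.5e-05), and within clones Jak3 was higher in each of the 5 and Stat5a in WT2, WT3 and KO2. Of 12 chains of receptors that signal through JAK1, JAK2 or TYK2, 10 were tested, 4 were higher and 2 lower, beside 14.8% of all genes higher and 13.9% lower. Within clones, 6 were higher in WT1, WT3, KO1 and KO2 and 7 in WT2, with 2 or 3 lower in each. Il10ra and Il2rg, chains of the IL10 and IL2 receptors, were higher in every clone but did not pass in the pooled WT fit (FDR-adjusted p-values 0.076 and 0.11). Il4ra (3.59-fold, SE of log2FC 0.069, FDR-adjusted p-value 2.6e-14), Csf2rb (2.58-fold, SE of log2FC 0.12, FDR-adjusted p-value 1.9e-08) and Il13ra1 (2.12-fold, SE of log2FC 0.30, FDR-adjusted p-value 0.0094), which encode chains of the IL4, GM-CSF and IL13 receptors, rose most. Il10rb and Il6ra (log2FC -0.51, SE 0.065, FDR-adjusted p-value 3.1e-06) fell.

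Of 20 regulators, 19 were tested, 11 were higher and 5 lower, beside the same 14.8% and 13.9% of all genes. Within clones, 9 to 11 were higher and 3 or 4 lower. Socs1, Socs3 and Cish, feedback inhibitors of cytokine receptors, rose most (log2FC 6.88, SE 0.16, FDR-adjusted p-value 1.2e-17 for Socs1, log2FC 4.85, SE 0.35, FDR-adjusted p-value 9.8e-10 for Socs3, and log2FC 4.82, SE 0.20, FDR-adjusted p-value 1.3e-13 for Cish). Socs1 had clone means of 0.306 to 0.393 CPM in untreated WT and 37.5 to 49.2 CPM after IFNG. Pias3, which encodes an inhibitor of STAT3, fell (log2FC -0.42, SE 0.043, FDR-adjusted p-value 1.9e-07), as did Socs5 (log2FC -0.33, SE 0.075, FDR-adjusted p-value 0.0017) and Sh2b3 (log2FC -0.33, SE 0.094, FDR-adjusted p-value 0.011). The median log2FC was 0.25 over the tested regulators, 0.56 over the receptor chains and 0.45 over the other JAKs and STATs, beside -0.0028 over all genes. In pooled KO, 10 regulators were higher and 3 lower, and 6 receptor chains were higher and 3 lower, beside 15.8% and 14.8% of all genes.

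**Figure D5:**
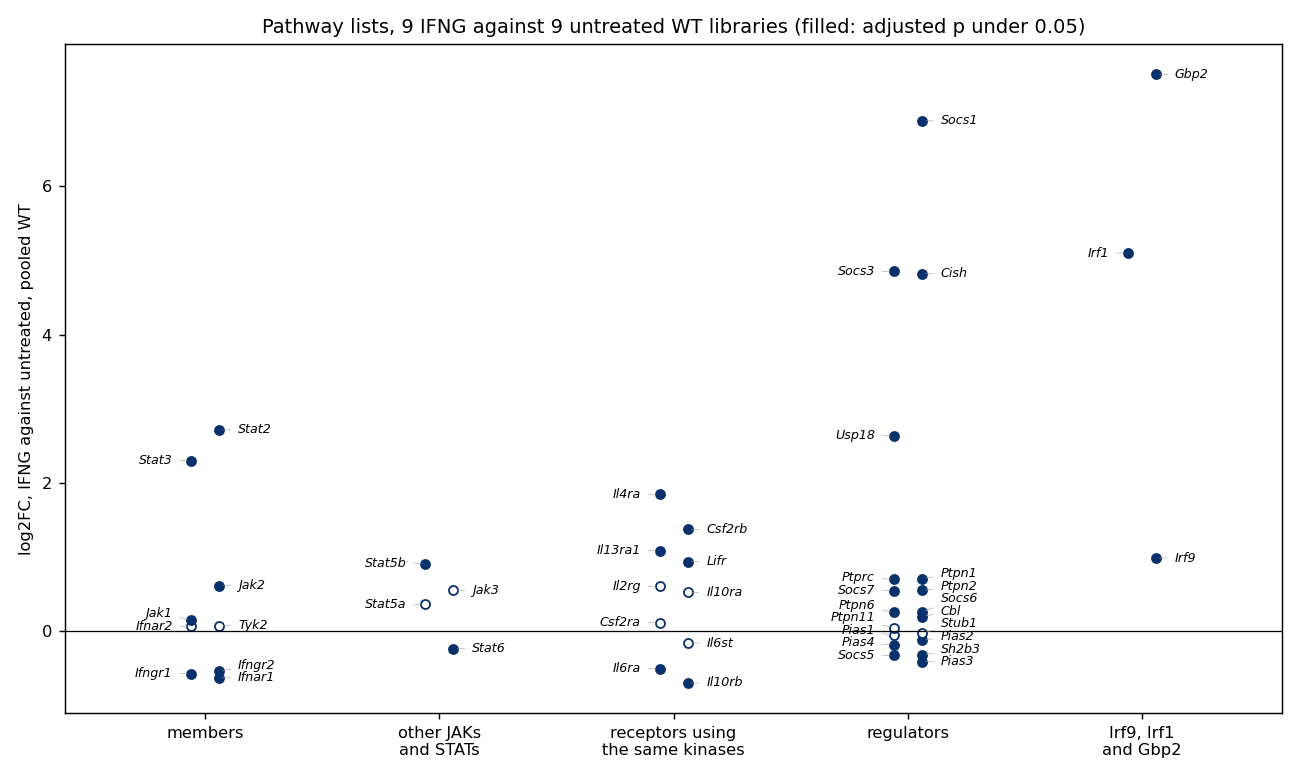
log2FC of IFNG against untreated in pooled WT (y axis) for the tested genes of each list (x axis), filled for an FDR-adjusted p-value under 0.05. Socs1, at 6.88, lies above every member, of which Stat2 at 2.71 is the highest.

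The non-members most alike each member over the 30 libraries, by Pearson r of log2(CPM + 0.5), were sought among 8904 genes whose mean reached 10 CPM. They were Dtx3l (0.997) and A530040E14Rik (0.996) for Stat2, Gm8995 (0.993) and Tmem173 (0.993) for Stat3, and Gbp9 (0.974) and Gbp2b (0.973) for Jak2. They were B4galt6 (0.968) and Jmjd1c (0.960) for Ifngr1, Lima1 (0.942) and Ptpn22 (0.934) for Ifngr2, and Tlr13 (0.979) and Dusp4 (0.974) for Ifnar1. For Ifnar2 they were Mfsd1 (0.947) and Wdfy3 (0.902), for Jak1 Traf6 (0.952) and Tor1aip1 (0.916), and for Tyk2 AU040320 (0.850) and Gm45234 (0.850). The libraries share treatment, clone and depth, so these values are a description.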

How the data were processed

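The table used holds counts as the authors deposited them, unnormalized fragments per gene in 30 library columns, which their other tables repeat. Per the methods and the submitters' notes, reads were trimmed (BBDuk), aligned to mm10 (HISAT2 2.1.0), merged over technical replicates (SAMtools 1.10) and counted on exons by strand (featureCounts 1.6.2), with a fragment over overlapping genes counted for each. The file header names Gencode vM18 and the methods a RefSeq annotation. The columns of WT2 and WT3 carry clone names other than the labels', and were assigned through the deposited tables named for each clone, which hold only those columns.

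Counts were tested with edgeR 4.0.16 (R 4.3.3), using filterByExpr, TMM factors, the quasi-likelihood test and Benjamini-Hochberg adjustment over all genes tested (threshold 0.05). SE is the absolute log2FC over the square root of F, and 95% intervals are 1.96 SE to each side. Clones were pooled without a clone term, except in the interaction and the tests across clones. DESeq2 1.42.0 was an alternative. Libraries of a clone and treatment differed by more than counting noise in all 30 pairs. RNA input and adapter kind differed among libraries but are not assigned to them in the labels, so these batches could not be checked. Members and lists were chosen with earlier results of these data known. Of each other list, at most 3 called genes per direction with the largest change in pooled WT were named, and Irf9, Irf1 and Gbp2 always.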

Additional observations from a re-analysis of the deposited data

Results flagged for a closer look

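Responses to IFNG that differed between groups drew attention through a test of the difference itself. The response was higher in KO than in WT on the log2 scale by 0.30 for Ifngr2, by 0.35 for Irf9 (FDR-adjusted p-value 0.0067) and by 0.55 for Gbp2 (FDR-adjusted p-value 0.016). For this difference 1.02% of the 14870 genes tested were called, and 3 genes in all with counts summed per clone. The Ifngr2 call was lost with these sums and without WT2, WT3 or KO1. Alternative fits of Irf9 and Gbp2 are not given. Untreated Gbp2 was low, at a mean of 3.46 CPM in WT and 2.70 CPM in KO. Among the 5 clones, the response differed for Stat3 (FDR-adjusted p-value 1.4e-06), Ifngr2 (5.9e-05), Gbp2 (0.00014), Ifnar1 (0.00047), Irf9 (0.0026), Jak2 (0.0026) and Irf1 (0.015), beside 3.68% of all genes. For the 9 members, no library stood apart in any of 36 groups of pooled libraries by Dixon's test, and groups of 3 were not tested. Each group spans clones whose levels differ, so a library apart from its own clone could be missed.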

How the results depend on the processing

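The counts of members called for IFNG against untreated stayed within 1.5 times of the main count under every alternative run. For KO against WT, leaving out each clone in turn gave 3 to 7 members untreated and 0 to 5 after IFNG, and 0 to 4 for the difference of response. Beside them, 11.6% to 47.8% of all genes were called untreated, 10% to 44.8% after IFNG and 0.143% to 3.87% for the difference. Counts summed per clone gave 0 members in each of these comparisons in edgeR. At an unadjusted p-value under 0.05 they gave 2, 3 and 4 members, beside 1842 of 16189, 1824 of 16197 and 1015 of 17532 genes. DESeq2 and no filter on low counts gave 3 members each for the difference of response, beside 210 of 14870 and 384 of 29004 genes. No paired analysis was possible because the library columns carry no replicate numbers, so libraries were matched only by clone, with clone as a block in the pooled responses.

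Directions turned only for members that were not called. With counts summed per clone, the KO against WT log2FC turned to -0.0032 for untreated Ifnar2 and -0.00068 for treated Jak1. Leaving out each library in turn, the Tyk2 response in WT3 ran from -0.037 to 0.093. Leaving out each clone in turn, the response ran from -0.0088 to 0.11 for Ifnar2 in WT (negative without WT1) and from -0.031 to 0.083 for Tyk2 in KO. The untreated KO against WT log2FC ran from -0.13 to 0.0084 for Jak1, -0.10 to 0.29 for Stat3 and -0.14 to 0.11 for Ifnar2, whose lowest value, without WT1, passed (FDR-adjusted p-value 0.020). After IFNG it ran from -0.059 to 0.057 for Jak1, -0.0063 to 0.12 for Stat3 and -0.027 to 0.15 for Ifnar2. The difference of response ran from -0.31 to 0.20 for Stat3 and -0.0083 to 0.12 for Ifnar2. The cause was not tested.

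Over all genes, the pooled WT response had 3840 calls, 6190 with clone as a block and 6571 with a single fit over all libraries. KO against WT had 3689 calls untreated (6472 without WT1, 1674 without KO1, 1 with sums per clone, 7143 with the single fit) and 3258 after IFNG (5992, 1411, 1 and 7194). The difference of response had 151 calls (384 with no filter, 564, 37, 82 and 21 without WT1, WT2, WT3 and KO1, 3 with sums per clone), and the response across clones 547 (919 with no filter, 319 without WT3).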

Other observations

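Of 19 tested regulators, 4 were higher and 3 lower in untreated KO, beside 12.2% of all genes higher and 14.4% lower. Usp18, which restrains the type I interferon receptor, was chosen after its values were seen. It was at 4.21 ± 0.721 CPM in WT1, 5.57 ± 0.292 CPM in WT2 and 3.25 ± 0.386 CPM in WT3, and at 2.53 ± 0.456 CPM in KO1 and 1.71 ± 0.251 CPM in KO2 (SD, n = 3 each). It was lower in KO untreated (log2FC -1.04, SE 0.19, FDR-adjusted p-value 0.00069) and after IFNG (log2FC -0.78, SE 0.12, FDR-adjusted p-value 0.00021) with libraries of a clone taken as replicates. With counts summed per clone it passed in neither (edgeR, FDR-adjusted p-values 0.33 and 0.29), where 1 gene in all was called in each treatment. Irf9 was at 19.7 ± 1.06, 28.4 ± 0.761 and 24.5 ± 1.42 CPM in untreated WT1, WT2 and WT3 and at 16.4 ± 2.005 and 17.8 ± 1.37 CPM in KO1 and KO2. After IFNG, Irf9 did not pass between the genotypes (log2FC -0.13, SE 0.061, FDR-adjusted p-value 0.13).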
